A study of Mus musculus with 12 samples.

Results

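The Mir-30 family is a set of microRNAs (miRNAs), short RNAs that repress messenger RNAs, made in the mouse from 6 genes. Its members were taken by name, as every row of the table whose first name is Mir-30 or one of its paralogues, which gave 11 of 513 rows, 5 for 5p arms and 6 for 3p arms. A row is one mature arm of a precursor, and both arms of a hairpin can be counted. All 11 rows had a mean of at least 10 and entered the test, as did 474 of the 513 rows. The libraries came from the hippocampus of male wild-type C57BL/6J mice of generation F2. The exercised lineage held 6 libraries from mice whose grandfathers, through the male line, had exercised, and the sedentary lineage held 6 from mice with sedentary grandfathers. No age is given in the labels, which name exercise in the grandfathers alone, and each library is labelled as its own mouse. Whole hippocampus was used, so fewer cells of a type and less of a miRNA per cell cannot be told apart.

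A miRNA finds its targets mainly through its seed, bases 2 to 8 from the 5′ end. Mir-30 genes lie in pairs, each pair holding one member of the P1 and one of the P2 branch. The family is widely expressed, and its 5p arms have been studied as repressors of Becn1, an autophagy gene, of Bdnf, a neurotrophin that responds to exercise in the hippocampus, and of the Notch ligand Dll4 in vessels. In the nomenclature of the rows (MirGeneDB), P1a is miR-30a, P1b is miR-30e, P1c is miR-30d, P2a is miR-30c-2, P2b is miR-30c-1 and P2c is miR-30b. The table itself pairs only P2a and P2b, whose 5p arms share 1 row as one sequence, so the other correspondences rest on that nomenclature. An asterisk marks the arm regarded as the passenger, and the 3p arms of P1b and P2a carry none.

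The mature sequences below, from RefSeq on build GRCm38.p6 and matched for 7 of the 11 rows, are shown because the seed and the few differing bases decide which arms can share targets and which reads can be told apart. Capitals mark the seed.
miR-30a-5p: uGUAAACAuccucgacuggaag
miR-30e-5p: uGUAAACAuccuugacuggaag
miR-30c-5p: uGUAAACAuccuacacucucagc
miR-384-5p: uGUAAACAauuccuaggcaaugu
miR-30a-3p: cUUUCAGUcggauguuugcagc
miR-30e-3p: cUUUCAGUcggauguuuacagc
miR-30c-2-3p: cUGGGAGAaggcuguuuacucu
miR-30c-1-3p: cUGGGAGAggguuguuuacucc

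All 3 printed 5p arms of the family carried the seed GUAAACA. The 4 rows of miR-30b and miR-30d were not matched to a sequence, so counts over the table do not include them. Of 1679 mature names in the RefSeq table, 4 carried this seed (0.238%), these 3 and miR-384-5p, an arm studied in synaptic plasticity. The printed 3p arms had 2 further seeds, UUUCAGU in miR-30a-3p and miR-30e-3p, and UGGGAGA in both miR-30c 3p arms. Of the table's names, 2 carried UUUCAGU and 3 UGGGAGA, the other being miR-6958-5p. Counting positions from 1 at the 5′ end, miR-30e-5p differs from miR-30a-5p by C13U alone, and miR-30e-3p differs from miR-30a-3p by G18A alone. The 3p arms of miR-30c-2 and miR-30c-1 differ by A9G, C12U and U22C. The number of mismatches allowed in counting is not given in the sources used here, so reads of arms that differ by 1 base could have been split between rows.

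On mm10 (GRCm38, GENCODE M21), Mir30a lies on chromosome 1 (23272269 to 23272339, plus strand) outside annotated host genes. Mir30c-2 lies 19361 bases further along that chromosome (23291701 to 23291784, plus strand) and overlaps an exon of the long noncoding RNA gene Gm27028. Mir30e (chromosome 4, 120772606 to 120772697, minus strand) and Mir30c-1 (chromosome 4, 120769534 to 120769622, minus strand) both lie in an intron of Nfyc, on its strand, with 2983 bases between them. Nfyc encodes a subunit of the NF-Y transcription factor.

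Values are normalized counts (reads over a library-wide size factor). Depth, inferred from the values and summed over the listed rows, was 6862623 to 10219856 reads per library. Libraries carried the miRNAs of brain. The summed rows of Mir-9, Mir-124, Mir-128, Mir-138 and Mir-132 ranged from 1871942 to 3196503 in exercised and from 2403617 to 3044513 in sedentary libraries. Rows of other cell types and tissues were also present, given as sums in exercised and then in sedentary libraries. Choroid plexus rows ranged from 46039 to 200056 and from 44551 to 196075, and erythroid rows from 622 to 826 and from 726 to 1219. Oligodendrocyte rows ranged from 2716 to 3593 and from 1476 to 3851. Rows of microglia and leukocytes ranged from 1549 to 2094 and from 1562 to 2042. Endothelial and mural rows ranged from 231948 to 583456 and from 253620 to 625376, muscle rows from 3096 to 5790.4 and from 3252 to 7682, epithelial rows from 3878 to 7744 and from 3019 to 38271, and the liver row from 62.8 to 405 and from 98.6 to 231. Of these marker rows, 1 epithelial row was listed at 0 in a library. The erythroid sum lay below the sedentary median in 6 of 6 exercised libraries and the epithelial sum above it in 6 of 6. Their part in the Mir-30 values was not tested. The submitters' library codes share 4 stems, with 3 libraries each. R31 and R41 are exercised-lineage stems, S11 and S41 sedentary-lineage stems. The labels do not say what a stem stands for. Because each stem belongs to 1 lineage, the lineages cannot be compared within a stem.

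The family was abundant in both lineages and was carried by its 5p arms. Its 11 rows made up 5.42% ± 0.630 of all normalized counts in exercised and 5.57% ± 0.373 in sedentary libraries (SD, n = 6 each). The exercised libraries ran from 4.34% through a median of 5.68% to 5.96%, and the sedentary libraries from 4.94% through 5.67% to 5.99%. The ranges overlapped, with F2_exercised replicate 1 below every sedentary library. The 2 lowest libraries were F2_exercised replicate 1 and F2_sedentary replicate 4. Without F2_exercised replicate 1 the difference in share turned from -0.147 to 0.0704 percentage points. Of the family's counts, the 3p rows held 4.18% ± 0.338 in exercised and 3.68% ± 0.587 in sedentary libraries, with 6 of 6 exercised libraries above the sedentary median. The exercised range of 3.75% to 4.62% lay within the sedentary range of 3.25% to 4.75%, and this share was not tested.

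**Figure D1:**
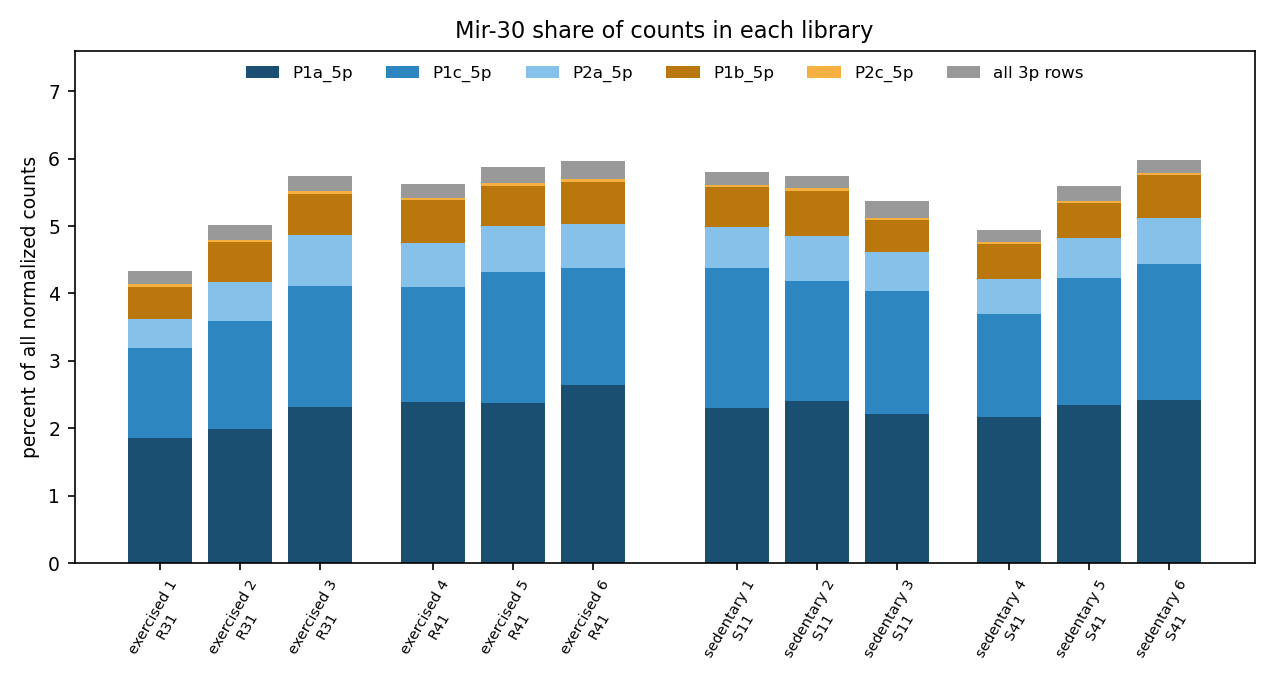
Stacked bars from 0 give the percent of all normalized counts held by each Mir-30 5p row and by the 3p rows together, in each of the 12 libraries, with the stem of the submitter code under each. The family ran from 4.34% in F2_exercised replicate 1 to 5.99% in F2_sedentary replicate 6, and P1a_5p and P1c_5p made up most of every bar.

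Within the 5p rows, P1a_5p and P1c_5p made up most of the counts in both lineages. Mir-30-P1a_5p held 43.5% ± 1.90 of 5p counts in exercised and 43.2% ± 1.56 in sedentary libraries, and Mir-30-P1c_5p 32.5% ± 1.39 and 34.3% ± 2.07 (SD, n = 6 each). The shared P2a and P2b row, called Mir-30-P2a_5p from here, held 11.9% ± 1.06 and 11.4% ± 0.558, and Mir-30-P1b_5p 11.4% ± 0.522 and 10.6% ± 1.01. Mir-30-P2c_5p was the smallest with 0.718% ± 0.172 and 0.532% ± 0.0974. The P1 branch held 87.4% ± 0.919 and 88.1% ± 0.551 of 5p counts, with 1 of 6 exercised libraries above the sedentary median. For the share of P2c_5p 6 of 6 exercised libraries lay above that median, and for the share of P1c_5p 6 of 6 lay below it. These shares were not tested. Among the 3p rows, Mir-30-P1b_3p led with 60.2% ± 3.10 and 58.7% ± 3.57, followed by Mir-30-P1a_3p* with 31.8% ± 1.93 and 32.3% ± 2.72.

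In the order of mean level, P1a_5p stood 11th of the 474 tested rows (192180.2), P1c_5p 15th (149023), P2a_5p 31st (52029), P1b_5p 33rd (48656), P1b_3p 68th (10789), P1a_3p* 84th (5726), P2c_5p 115th (2695), P2a_3p 181st (872), P1c_3p* 244th (292), P2c_3p* 272nd (219) and P2b_3p* 309th (118 normalized counts). P2a_5p and P1b_5p, neighbours in that order, did not differ beyond their spread, with P2a_5p higher in 10 of 12 libraries. In the other 9 of 10 pairs of neighbours the first was higher in every library, and P1a_5p and P1c_5p still overlapped in range. Arms differ in ligation and PCR efficiency, so the order describes counts and not molecules.

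**Figure D2:**
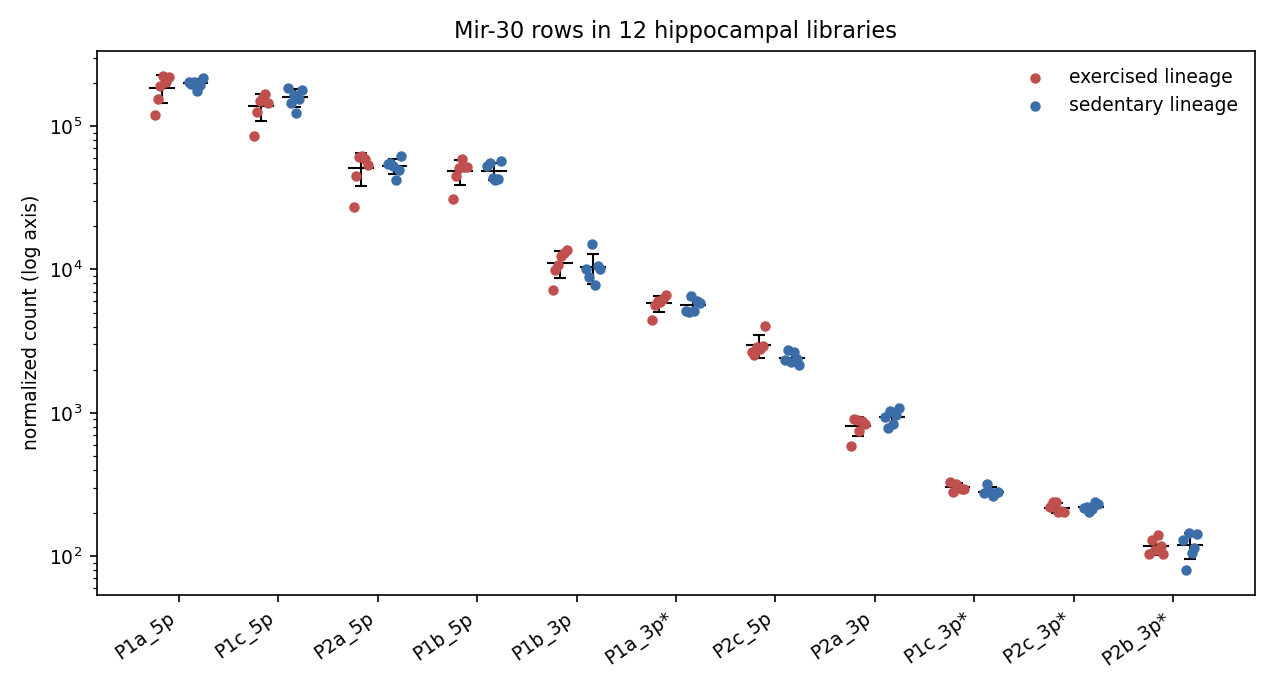
Points give the normalized count (log axis) of each of the 11 Mir-30 rows in each library, exercised lineage in red and sedentary lineage in blue, and bars the mean and SD (n = 6 per lineage). Both lineages overlap in every row, and the lowest point in each of the 4 most abundant rows is F2_exercised replicate 1.

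No Mir-30 row was called between the lineages. With limma on log2(value + 1) over all 474 rows, 0 were called at a Benjamini-Hochberg adjusted p below 0.05 (percent called 0), and 34 had an unadjusted p below 0.05 (7.17%), 1 of them in the family. A fold here is the log2 difference between lineages, positive where the exercised one was higher. Of the family's rows 4 lay above 0 and 7 below (50.2% of all tested rows lay below 0). The family's median was -0.01, beside -0.00 over all tested rows. Rows whose libraries did not overlap between lineages numbered 0 in the family and 0 among all tested rows. Differences beyond 1.5-fold, up or down, were outside the 95% confidence interval for 11 of 11 Mir-30 rows and for 58.9% of all tested rows.

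Mir-30-P1a_5p, the arm best known for repressing Becn1 and reported to repress Bdnf, ran in the exercised lineage from 120015 through a median of 197850 to 223409 normalized counts. In the sedentary lineage it ran from 176064 through 200001 to 216857. The exercised libraries spread wider on both sides, and 3 of 6 lay above the sedentary median. The fold was -0.13 (SE 0.14, 95% confidence interval -0.43 to 0.17, limma adjusted p = 0.732). It was -0.01 without F2_exercised replicate 1, -0.38 without the R41 libraries (limma adjusted p = 0.555) and 0.12 without the R31 libraries.

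Mir-30-P1c_5p, studied in pancreatic islets for its link to insulin, ran from 86039 through 147391 to 167281 in exercised and from 123528 through 160846 to 184838 in sedentary libraries. Only 1 of 6 exercised libraries lay above the sedentary median, and the ranges overlapped. The fold was -0.22 (SE 0.16, -0.55 to 0.12, limma adjusted p = 0.597). It was -0.08 without F2_exercised replicate 1, -0.43 without the R41 libraries (limma adjusted p = 0.555) and -0.0036 without the R31 libraries.

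Mir-30-P2a_5p, the miR-30c arm made by 2 genes and studied with Dll4, ran from 27431 through 56184 to 61895 in exercised and from 42186 through 53374 to 62116 in sedentary libraries. Its exercised libraries had the widest log2 spread in the family (SD 0.45, against 0.19 in the sedentary lineage). The fold was -0.08 (SE 0.18, -0.47 to 0.31, limma adjusted p = 0.921). It was 0.09 without F2_exercised replicate 1, -0.30 without the R41 libraries and 0.15 without the R31 libraries.

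Mir-30-P1b_5p, from the Nfyc intron, ran from 31015 through 51501 to 59137 in exercised and from 42211 through 48188 to 57219 in sedentary libraries. Here 4 of 6 exercised libraries lay above the sedentary median. The fold was -0.03 (SE 0.15, -0.35 to 0.28, limma adjusted p = 0.965). It was 0.09 without F2_exercised replicate 1, -0.22 without the R41 libraries and 0.16 without the R31 libraries. In the 4 most abundant rows the lowest of all 12 values was thus that of the same library, F2_exercised replicate 1. The summed brain rows were also lowest there, at 1871942 against 2403617 in the next library, and so was the normalized total (6458450). As shares of all counts, P1a_5p, P1c_5p and P2a_5p were still lowest there (1.86%, 1.33% and 0.425%). P1b_5p was lower in F2_sedentary replicate 3, at 0.476% against 0.480%.

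Mir-30-P2c_5p, the miR-30b arm and the least abundant 5p row, had the smallest unadjusted p of the family. It ran from 2529 through 2825 to 4033 normalized counts in exercised and from 2164 through 2348 to 2759 in sedentary libraries. Of the exercised libraries 6 of 6 lay above the sedentary median, with F2_exercised replicate 6 far above the rest, yet the ranges overlapped. Means were 2969 ± 540.1 and 2421 ± 229 (SD, n = 6 each). The fold was 0.28 (SE 0.11, 0.04 to 0.53, limma adjusted p = 0.532), with the 16th smallest p of 474 rows. It was 0.19 without F2_exercised replicate 6, 0.15 without the R41 libraries and 0.41 without the R31 libraries (limma adjusted p = 0.712, 0.586 and 0.456, and 0.379 to 0.750 over 25 alternatives). As a share of all counts the row held 0.0368% ± 0.00690 and 0.0283% ± 0.00399.

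The 3p rows had folds on both sides of 0. Mir-30-P2a_3p, of miR-30c-2, stood at 808 ± 121 against 936 ± 114 normalized counts (SD, n = 6 each), with 6 of 6 exercised libraries below the sedentary median. Its fold was -0.22 (SE 0.12, -0.48 to 0.04, limma adjusted p = 0.532), and -0.13 without F2_exercised replicate 1. The passenger Mir-30-P1c_3p* stood at 303 ± 18.4 against 282 ± 19.4, with 6 of 6 exercised libraries above the sedentary median and a fold of 0.10 (SE 0.08, -0.07 to 0.27, limma adjusted p = 0.615). Neither passed the test.

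Mir-30-P1b_3p, the miR-30e arm studied in NF-κB signalling, stood at 11152 ± 2371 against 10426 ± 2505, a fold of 0.10 (-0.28 to 0.48), which ran from 0.02 to 0.22 with 1 library left out and was -0.16 without the R41 and 0.35 without the R31 libraries. Mir-30-P1a_3p*, which shares its seed, stood at 5818 ± 741 against 5634 ± 600.4, a fold of 0.04 (-0.19 to 0.27), which ran from 0.0022 to 0.12 with 1 library left out. Together these 2 rows held 0.208% ± 0.0220 and 0.186% ± 0.0284 of all counts. The passengers Mir-30-P2b_3p* and Mir-30-P2c_3p* had folds of -0.01 each, with intervals of -0.33 to 0.31 and -0.19 to 0.16. For these 4 rows the limma adjusted p ran from 0.890 to 0.996.

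**Figure D3:**
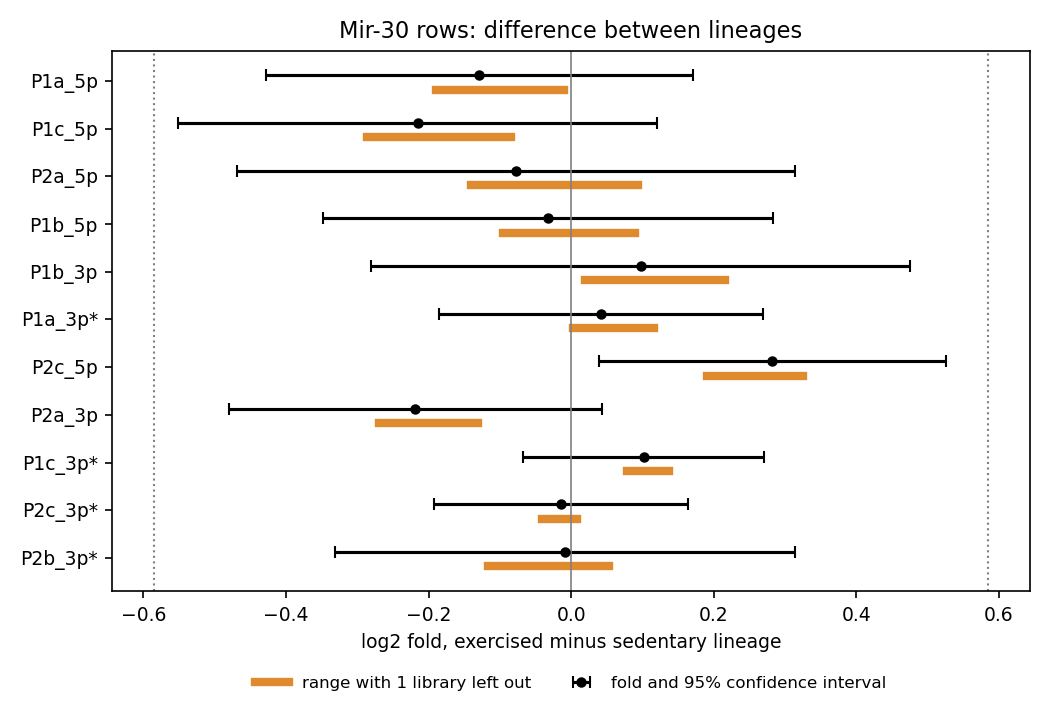
Black points and bars give the log2 fold (exercised minus sedentary lineage) of each Mir-30 row with its 95% confidence interval from limma, orange bars the range of the fold with each of the 12 libraries left out in turn, and dotted lines a 1.5-fold difference. P2c_5p, with 0.04 to 0.53, has the 1 interval that does not include 0, and every interval lies between the dotted lines.

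The direction of several rows depended on how libraries were scaled. Normalized totals ranged from 6458450 to 9370388, lowest in F2_exercised replicate 1, so size factors and totals scale that library differently. With libraries scaled to equal totals, 3 of 11 rows lay below 0 in place of 7, and the median of all tested rows moved to 0.09. P1b_5p was then at 0.05, P2a_5p at 0.01, P2b_3p* at 0.08 and P2c_3p* at 0.07. P1a_5p, P1c_5p and P2a_3p stayed below 0 and P2c_5p above it under each of the 3 other scalings tried, with 0 rows called.

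The balance of the arms was compared between lineages as the log2 ratio of 5p over 3p values, for all 175 loci of the table with both arms at a mean of at least 10. Loading of one arm into Argonaute and the stability of each arm bear on such a ratio, as do ligation and PCR of each arm, so it describes counts. In the family, P1c was the most one-sided with 448 counts of 5p per count of 3p in exercised and 558 in sedentary libraries (geometric means). P2a followed with 62.0 and 56.2, where the 5p row also holds the reads of P2b, then P1a with 31.4 and 35.4 and P2c with 13.4 and 10.95. P1b was the most even with 4.35 and 4.76. No locus was called with limma, 0 of 5 in the family and 0 of 175 in all (percent called 0), and 11 loci (6.29%) had an unadjusted p below 0.05, 0 of them in the family.

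P2c had the smallest p of the family for this ratio. Its log2 ratio was 3.75 ± 0.31 in exercised and 3.45 ± 0.16 in sedentary libraries (SD, n = 6 each), a difference of 0.30 (SE 0.15, 95% confidence interval -0.03 to 0.62, limma adjusted p = 0.547), and 0.07 without the R41 libraries. P1c differed by -0.32 (SE 0.19, -0.74 to 0.11, limma adjusted p = 0.611), and by -0.16 without F2_exercised replicate 1. P1a differed by -0.17 (-0.42 to 0.08), P1b by -0.13 (-0.51 to 0.25) and P2a by 0.14 (-0.20 to 0.48). The family's median was -0.13, beside -0.07 over all 175 loci.

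**Figure D4:**
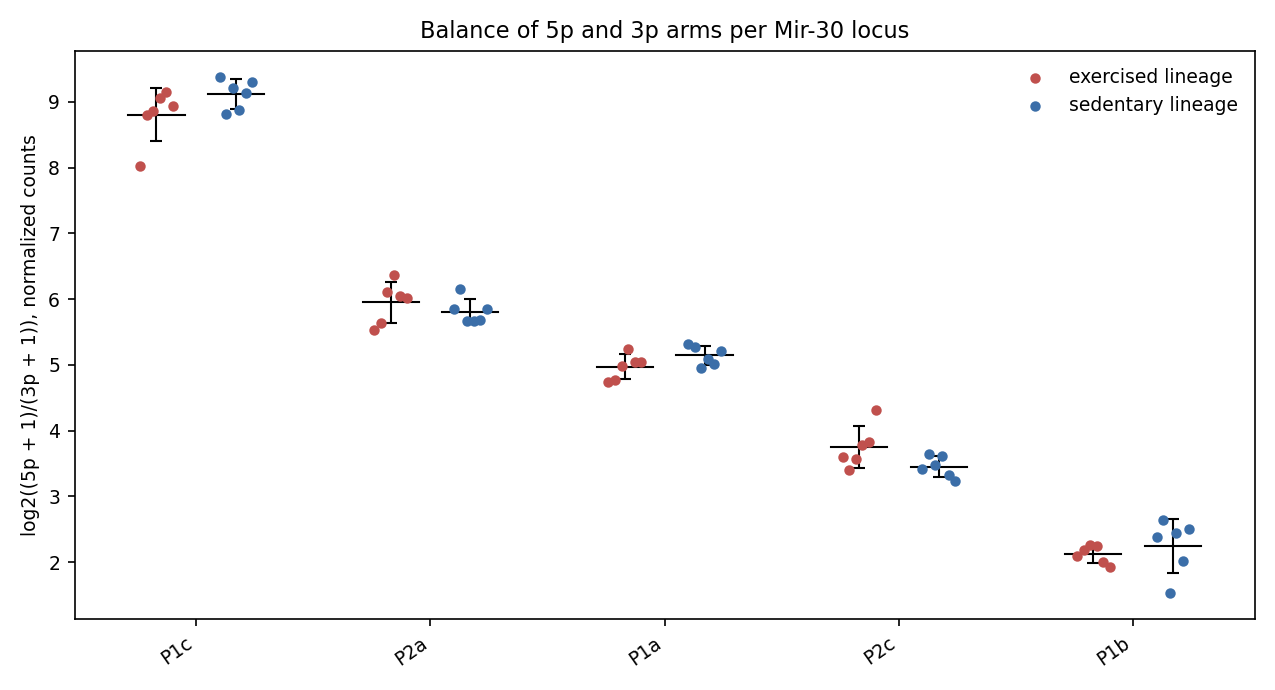
Points give log2 of (5p + 1) over (3p + 1) normalized counts for the 5 Mir-30 loci in each library, exercised lineage in red and sedentary in blue, with mean and SD (n = 6 per lineage). P1c lies near 9, P1b near 2, and both lineages overlap at every locus.

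Mir-384_5p*, the arm outside the family with the seed GUAAACA, stood at 1831 ± 445 against 1733 ± 141 normalized counts, with a fold of 0.05 (-0.28 to 0.37, limma adjusted p = 0.955). Its gene is intergenic on chromosome X (105344282 to 105344369, minus strand). It held 0.428% ± 0.0524 and 0.375% ± 0.0267 of its own counts and those of the 5 Mir-30 5p rows together. Summed, those rows held 5.22% ± 0.617 and 5.39% ± 0.376 of all counts.

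In several Mir-30 rows the R31 and R41 libraries of the exercised lineage did not overlap, as also in part of all tested rows. The family total ran from 280108 to 474419 normalized counts in the R31 and from 496068 to 527241 in the R41 libraries, against 471181 to 516035 in S11 and 400995 to 535693 in S41. As a share of all counts the family held 4.34% to 5.74% in R31 and 5.63% to 5.96% in R41, and these ranges overlapped. The mean normalized total was 7507294 in R31 and 8769417 in R41. The R31 libraries lay below all R41 libraries in 3 of 11 rows (8.44% of all tested rows), P1a_5p, P1b_5p and P1b_3p, and above them in 1 (8.65% of all tested rows), P2c_3p*. As shares of all counts they lay below in 2 rows (1.90% of all tested rows), P1a_5p and P1b_3p, and above in 2 (19.6%), P1c_3p* and P2c_3p*. P1a_5p held 1.86% to 2.31% of counts in R31 and 2.38% to 2.64% in R41. The S11 and S41 libraries overlapped in all 11 rows, while S11 lay below S41 in 3.59% and above it in 1.69% of all tested rows. Stems were compared without a test.

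Most 5p rows varied together over the 12 libraries. Correlations are Pearson r of log2(value + 1), given as descriptions, since rows share library, size factor and depth. Among P1a, P1b, P1c and P2a, the 6 pairs of 5p rows had r from 0.80 to 0.93, and from 0.49 to 0.83 without F2_exercised replicate 1. P2c_5p stood apart, with r from -0.21 to 0.13 against those 4 rows. P1a_3p* and P1b_3p, which differ by 1 base, had r = 0.90 (0.86 without F2_exercised replicate 1), the highest of P1b_3p with any of 473 other rows. Between the arms of one hairpin r was 0.69 for P1a, 0.48 for P1b, -0.37 for P2c and -0.39 for P1c. For P2a, whose 5p row also holds the reads of P2b, it was 0.64. Without F2_exercised replicate 1 the values were 0.35 for P1a, 0.12 for P1b, -0.37 for P2c, 0.07 for P1c and 0.01 for P2a. The median r over all pairs of tested rows was -0.00.

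**Figure D5:**
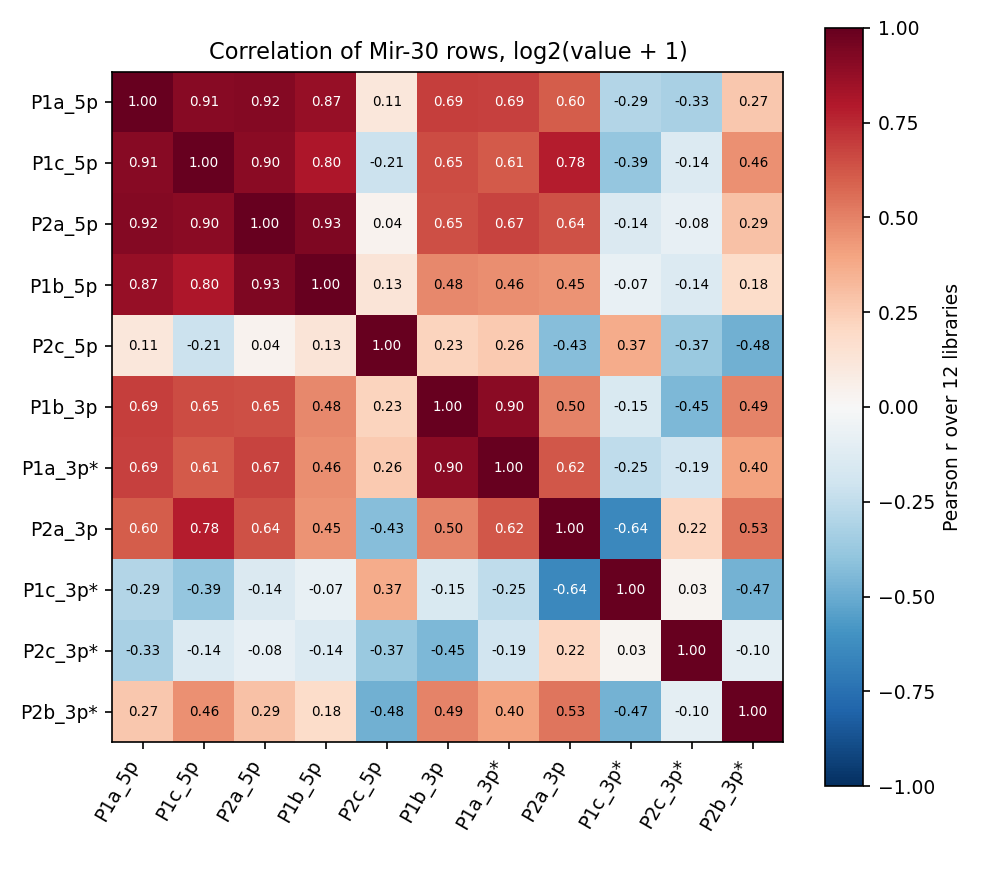
Each cell gives Pearson r of log2(value + 1) between a pair of Mir-30 rows over the 12 libraries, 5p rows first, with red for positive and blue for negative r. The 4 most abundant 5p rows form a block of 0.80 and above, and P2c_5p lies near 0 against them.

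Outside the family, over 12 libraries, the rows most like P1a_5p were Mir-9-P1_5p (r = 0.93, brain), Mir-145_5p (0.93, endothelial and mural) and Mir-425_5p (0.92). For P1c_5p they were Mir-361-v1_3p* (0.97), Mir-146-P2_5p (0.97) and Mir-7-P3_5p (0.96). For P2a_5p they were Mir-17-P3a_5p (0.95), Mir-361-v1_3p* (0.94) and Mir-9-P1_5p (0.93), and for P1b_5p Mir-154-P4_5p (0.92), Mir-17-P3a_5p (0.91) and Mir-19-P2a_3p (0.90). The rows most like P1b_3p were Mir-29-P1b_5p* (0.90), Mir-129-P1_5p (0.89) and Mir-26-P3_5p (0.88), and those most like P2a_3p Mir-423_3p* (0.94), Mir-10-P3a_5p (0.90) and Mir-362-P3_3p (0.88). P2c_5p shared none of these: its closest rows were Mir-154-P5_3p (0.87), Mir-15-P2a_5p (0.87) and Mir-340_5p (0.85). Without F2_exercised replicate 1, r of P1a_5p fell to 0.79 with Mir-9-P1_5p, 0.84 with Mir-145_5p and 0.87 with Mir-425_5p. For P2a_5p it fell to 0.79 with Mir-17-P3a_5p and 0.76 with Mir-361-v1_3p*, and for P1b_5p to 0.78 with Mir-154-P4_5p. For P1c_5p with Mir-361-v1_3p* it was then 0.94, and for P2c_5p with Mir-15-P2a_5p 0.91.

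Other miRNA groups with members reported to repress Bdnf had folds on both sides of 0. Their rows without asterisk were taken by group, so a row need not itself be so reported. Of 17 tested rows of the Mir-1, Mir-10-P1, Mir-15, Mir-26, Mir-155, Mir-191 and Mir-210 groups and of Mir-96-P2 (miR-182), 7 had a fold above 0, 10 below and 0 were called, with a median of -0.05 beside -0.00 over all tested rows, and 1 (Mir-15-P1a_5p, 0.25, interval 0.03 to 0.48, limma adjusted p = 0.532) had an unadjusted p below 0.05. With 1 library left out that median ran from -0.12 to 0.03, highest without F2_exercised replicate 2, and it was 0.04 under equal totals, 0.10 without the R31 and -0.16 without the R41 libraries. The most abundant, Mir-26-P1_5p stood at 284621 ± 34672 against 316112 ± 37366 normalized counts (fold -0.15, limma adjusted p = 0.576). Mir-30a and Mir-30c also belong to a set reported in sperm after paternal stress. Of that set, the other families matched by name were Mir-29, Mir-32, Mir-193, Mir-204 and Mir-375, and miR-532 was not included. Rows were taken by family and without asterisk, so an arm or paralogue can differ from the one reported. Mir-193-P1b_3p and Mir-193-P2a_3p, both 3p arms, had folds of 0.48 and 0.25. These families gave 8 tested rows with 6 folds above 0, 2 below and 0 calls. The 2 below were Mir-204-P1_5p (-0.35) and Mir-375_3p (-0.22). The list had a median of 0.18, beside -0.00 over all tested rows, of which 50.2% lay below 0. The list median ran from 0.10, without F2_exercised replicate 6, to 0.25 with 1 library left out. It was 0.05 without the R41 and 0.04 without the S41 libraries. The most abundant, Mir-29-P1a_3p, a repressor of collagens and DNA methyltransferases, stood at 84643 ± 6070 against 77984 ± 4595 (fold 0.12, limma adjusted p = 0.532). Its Mir-30 members, P1a_5p and P2a_5p, had folds of -0.13 and -0.08.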

How the data were processed

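Small RNA was sequenced from 12 hippocampi, 6 per lineage, grouped by title. A Qiagen miRNA kit and the NEBNext small RNA library set were used, per the labels' protocols. Molecular identifiers are not named there. Bowtie 1.3.0, DESeq2 and the build mm10 are named, with no role, per the submitters' processing notes. How reads were trimmed and matched is not given in those notes. Each deposited value is a signal of 0 or more, equal to an arm's reads over the size factor of its library. In each library 100% of values were whole multiples (within 0.01) of 1 step, which gave the depth. The step was inferred from the values, since the size factors are not given, and no count model was fitted.

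Lineages were compared in R 4.3.3 with limma 3.58.1 (empirical Bayes with trend) on log2(value + 1), for rows with a mean of at least 10, with p-values adjusted over all tested rows or loci. Folds on this scale understate differences of low values. The fit was tested on simulated data. All Mir-30 rows are named, and outside rows by the 3 highest correlations per arm without asterisk. The members and lists were chosen with earlier results of these data known. P-values treat mice as independent.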

Additional observations from a re-analysis of the deposited data

Results flagged for a closer look

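Within each lineage, single libraries that stood far from the other 5 were sought in the 11 Mir-30 rows, the 5 strand ratios and the family share. The gap to the nearest library, as a share of the lineage's range, had to exceed Dixon's 95% critical value. Of 34 sets of 6 values, 3 met this, and chance gives about 1 in 20. Mir-30-P2c_5p was 4033 normalized counts in F2_exercised replicate 6, with the next library at 2932. Mir-30-P1c_3p* was 319 in F2_sedentary replicate 2, with the next at 282. The log2 ratio of 5p over 3p of Mir-30-P1c was 8.03 in F2_exercised replicate 1, with the next at 8.80.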

How the results depend on the processing

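In each of 25 alternatives 0 rows were called, in the family and in the table, and in each of 22 run on arm ratios 0 loci. Rows at an unadjusted limma p below 0.05 numbered 16 to 48 (0 to 2 in the family, 17 to 48 with 1 library left out). Of the 11 Mir-30 folds, 4 kept their sign throughout (P1c_5p, P1c_3p*, P2a_3p and P2c_5p), though P1c_5p was -0.0036 without R31 and -0.43 without R41, and 7 did not. The cause was not tested. Under equal totals P1b_5p was 0.054, P2a_5p 0.0098, P2b_3p* 0.078 and P2c_3p* 0.073. Under upper-quartile scaling P1b_5p was 0.029, P2b_3p* 0.053 and P2c_3p* 0.048. Without the R31 libraries P1a_5p was 0.12, P1b_5p 0.16, P2a_5p 0.15 and P2b_3p* 0.029. Without the R41 libraries P1a_3p* was -0.070, P1b_3p -0.16, P2c_3p* 0.080 and the arm ratio of P2a -0.049. Without S11, P1b_5p was 0.016, and without S41, P1b_3p was -0.018, P2b_3p* 0.019 and P2c_3p* 0.034. With 1 library left out, P1b_5p ran from -0.096 to 0.090, P2a_5p from -0.14 to 0.094, P2b_3p* from -0.12 to 0.053 and P2c_3p* from -0.041 to 0.0089. The share difference ran from -0.274 to 0.0704 percentage points.

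With mouse number as a replicate block, 0 rows and 0 loci were called and P2c_5p kept its fold of 0.28 (limma adjusted p = 0.720). Deviations of same-numbered mice had correlations of -0.17 to 0.15, and 1 of 6 exercised libraries correlated best with its own number. No pairing by number was thus seen, which does not exclude one. The stem as a random effect had an estimated correlation of -0.00. The trimmed-mean scaling was run without precision weights, and the 2 count-model alternatives were not run.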
